A study of Mus musculus with 12 samples.

Results

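The cytosolic ribosomal proteins are the protein subunits of the ribosome that works in the cytoplasm. They were taken from the count table by name: symbols that begin with Rpl or Rps and go on with a number (with at most 1 letter and 1 further digit after it), and Rplp0, Rplp1, Rplp2 and Rpsa. This rule found 85 of 24538 genes, 33 named for the small subunit and 52 for the large subunit. The name rule used no measured value, but the family was chosen with earlier results of these data known. RNA-seq had been done on 12 libraries of mouse bone marrow cells, with 2 libraries for each combination of 2 cell populations and 3 Tet2 genotypes. The question, as the series title gives it, is which functions of the DNA dioxygenase Tet2 in stem and progenitor cells do not rest on its catalysis.

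The 3 genotypes were wild type (WT), Tet2 KO and Tet2 Mut, in mice of a mixed 129/C57/B6 strain aged 10 weeks. The 2 populations were LSK cells and cells described as MPP, whose sample titles say Lin. All cells were sorted by flow cytometry. Each genotype was represented by the pooled marrow of 2 mice, and the 2 libraries of a group were technical replicates of that pool. The p-values below therefore measure the spread between libraries and not between mice, and the pool and the genotype cannot be told apart. The labels used here give neither the altered residues of Mut, the deleted exons of KO nor the sorting gates.

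Each ribosomal protein is incorporated into the small or the large subunit, most of them as a single copy, so a cell needs them in like amounts. Their messengers are short, abundant and belong to the TOP class, which begins with a C and a run of pyrimidines at the cap, and whose translation is controlled through the TOR kinase. Inherited loss of 1 copy of several of these genes causes Diamond-Blackfan anaemia, a failure of red cell production in the marrow, and haematopoietic stem cells are known for tight control of protein synthesis.

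The start of the messenger is shown first, since it is the feature the family is best known for. RefSeq promoter entries (GRCm38.p6, 300 bases each, 250 of them before the annotated start) matched 64 of the 85 members. A C at the annotated start base followed by at least 4 pyrimidines was found in 14 of those 64 genes (21.9%), beside 813 of all 27025 genes with an entry (3.01%) and 0 of 69 mitochondrial ribosomal protein genes. A run that began beside that base was not counted, as in Rpl18, with 10 pyrimidines from position 2 to 11. Start sites were not measured here, so the count describes annotated starts and may miss TOP starts. A pyrimidine run of at least 10 bases touched the window from 5 bases before the start to 10 after it in 20 of the 64 members (31.2%) and in 6.67% of all genes. Below, 30 bases around the start are given for members whose level is followed later, with the start base at position 16. Capitals mark the longest pyrimidine run that touched the stretch from 5 bases before the start to 10 after it, cut at the ends of the 30 bases. The first 5 are members lower in LSK Mut than in LSK WT, the sixth is the stalk protein Rplp2, and the last 3 are members that were not called different between those groups.
Rps21 (chr2:180257364-180257393, + strand): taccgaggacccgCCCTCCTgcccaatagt
Rpl14 (chr9:120571502-120571531, + strand): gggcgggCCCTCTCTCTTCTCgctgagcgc
Rpl27a (chr7:109519180-109519209, + strand): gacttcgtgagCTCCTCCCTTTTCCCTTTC
Rps24 (chr14:24490663-24490692, + strand): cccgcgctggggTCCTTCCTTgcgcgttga
Rpl41 (chr10:128549154-128549183, - strand): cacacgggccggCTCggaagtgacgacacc
Rplp2 (chr7:141447636-141447665, + strand): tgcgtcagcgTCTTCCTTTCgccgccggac
Rpl15 (chr14:18270972-18271001, - strand): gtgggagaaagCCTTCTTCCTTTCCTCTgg
Rps18 (chr17:33955651-33955680, - strand): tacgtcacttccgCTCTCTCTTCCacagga
Rplp0 (chr5:115559452-115559481, + strand): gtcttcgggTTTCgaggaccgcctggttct

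Around these starts the run differed between members: Rpl27a had 16 pyrimidines in a row from the start base on, Rpl15 had 13, and Rpl41 and Rplp0 had a G at the annotated start. Of the 15 members lower in LSK Mut, 11 had an entry and 2 of those 11 (18.2%) had the C with its pyrimidines, beside 12 of the 53 other members with an entry (22.6%). Among letters searched on both strands of the 300 bases, CCGGAAG, the core bound by ETS factors, was found in 26 of the 64 members (40.6%) and in 9.93% of all genes. AAGATGGC, the YY1 core, which can overlap it by AAG, was found in 6 members (9.38%; 3.19% of all genes), the E-box CACGTG in 6 (9.38%; 8.09%) and the TATA box TATAAA in 8 (12.5%; 15.7%). CCGGAAG was found in 4 of the 11 members lower in LSK Mut and in 22 of the other 53, and in 37.7% of the mitochondrial ribosomal protein genes.

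Gene counts ran from 9181027 to 23532847 a library, lowest in the first LSK WT library. Spike-in RNA took 0.0822% to 0.229% of all counts in LSK libraries and 3.16% to 5.15% in MPP libraries. With these shares, the choice between scaling by genes and by spike-ins decided the sign of several differences below. The 2 LSK Mut libraries, technical replicates, had 0.139% and 0.0822%. How much spike-in RNA was added per cell or per amount of RNA is not given in the sources used here. Differences under spike-in scaling therefore cannot be read as amounts of RNA per cell. Levels are given as CPM, read counts relative to the size of the library, after TMM scaling of the 12 libraries, a scaling that sets the typical gene to no change. Tet2 was at 87.3 and 62.6 CPM in the LSK WT libraries, 29.2 and 31.7 in LSK KO and 43.4 and 44.3 in LSK Mut; in MPP it was 39.6 and 29.4 in WT, 34.9 and 34.9 in KO and 40.1 and 37.4 in Mut, so that gene counts did not set MPP KO apart from MPP WT. Groups are called by their labels throughout. The summed level of 8 genes used to define or divide the LSK gate was 2733 to 3519 CPM in LSK libraries and 708 to 888 CPM in MPP libraries, with Ly6a, which encodes Sca-1, at means of 10.4 to 20.3 CPM in the MPP groups. Scaled by genes, Kit, Ly6a, Flt3, Cd34 and Procr were called lower in MPP than in LSK in all 3 genotypes. Cd48 and Slamf1 did not follow this in every genotype: Cd48 had means of 120, 233 and 232 CPM in LSK WT, KO and Mut and 165, 169 and 159 CPM in MPP, called higher in MPP for WT and lower for Mut, and Slamf1 had 35.0, 5.07 and 4.07 CPM in LSK and 4.02, 8.25 and 4.36 CPM in MPP. The 5 granulocyte-monocyte genes, Mpo among them, summed to 2034 to 6003 CPM in LSK and 46170 to 60946 CPM in MPP libraries, and 4 B-cell genes stayed at or below 10.5 CPM in all 12.

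The members together took a larger share of the counts in LSK WT than in any other group. Their share of gene counts was 2.72% and 2.81% in the LSK WT libraries, 2.63% and 2.36% in LSK KO, and 1.88% and 2.05% in LSK Mut. In MPP the libraries held 1.52% and 1.65% (WT), 1.76% and 1.70% (KO), and 1.64% and 1.56% (Mut). Within LSK the libraries of the 3 genotypes did not overlap, and the means fell in the order WT, KO, Mut; within MPP the libraries of Mut lay inside the range of WT. The share in LSK Mut was 0.711 times that in LSK WT, the share in LSK WT was 1.75 times that in MPP WT, and the share in LSK Mut was 1.23 times that in MPP Mut. With 2 libraries against 2, an exact permutation test cannot reach 0.05, so none was run on these sums.

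**Figure D1:**
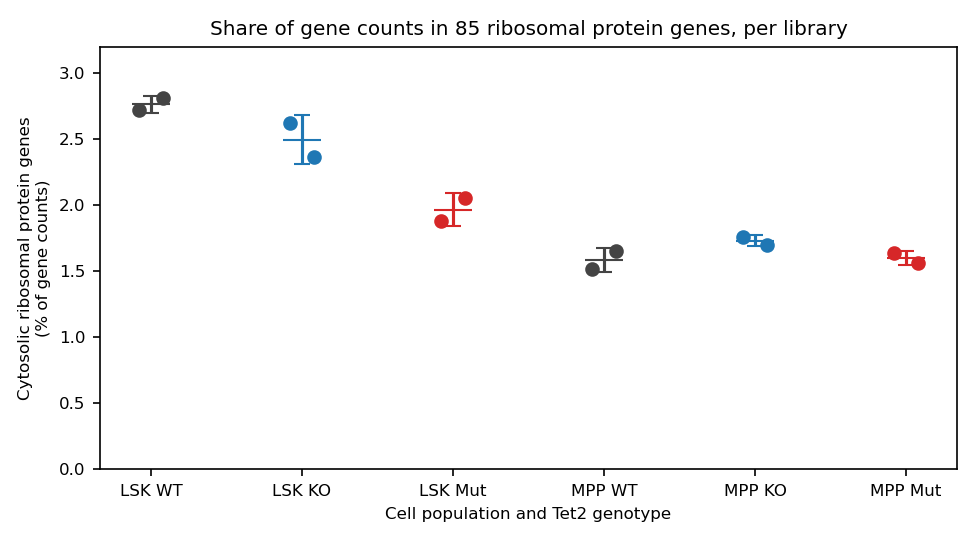
Share of gene counts in the 85 ribosomal protein genes (vertical axis, percent) in each library of the 6 groups (horizontal axis); points are libraries, the bar is the mean and the whiskers are 1 SD (n = 2). The share runs from 2.81% in LSK WT down to 1.88% in LSK Mut, and all MPP libraries lie at or below 1.76%.

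Within LSK, 2 other gene rows with many counts moved with this share. Which transcripts the reads counted in these 2 rows came from was not tested. Counts of Rn45s, the 45S ribosomal RNA precursor, made up 3.65% and 3.70% of gene counts in LSK WT, 2.47% and 2.51% in LSK KO, 0.981% and 1.09% in LSK Mut, and 0.873% to 1.10% in MPP. Those of Lars2, the mitochondrial leucyl-tRNA synthetase gene, made up 1.76% and 1.89%, 1.27% and 1.29%, and 0.476% and 0.442% in the same LSK groups. Within MPP, Lars2 did not move with the members: it made up 0.216% and 0.234% in WT, 0.178% and 0.172% in KO, where the members' share was highest, and 0.346% and 0.340% in Mut (log2 difference of -0.42 ± 0.05 between MPP KO and MPP WT, edgeR adjusted p = 0.0164). Taken out of the denominator, they left the ratio of LSK Mut to LSK WT at 0.682 in place of 0.711. Their part in the members' result was otherwise not tested.

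The members were counted at very unequal levels. The 10 highest held 47.6% to 57.4% of the members' counts in a library, and 12 to 18 members a library were under 10 CPM. Per kilobase of the shortest principal transcript, and averaged over the 6 groups, the highest included Rpl41, the smallest protein of the ribosome, at 2593 CPM per kb, Rps14 at 1888, Rpl32 at 1694 and Rplp1 at 1441. At the other end Rpl26 and Rpl10l had 0 counts in all 12 libraries, and the lowest detected members were Rpl39l (0.196 CPM per kb), Rpl3l (0.920) and Rpl30 (1.86). Rpl5 and Rpl11, which hold the 5S RNA in the large subunit, were at only 2.57 and 9.46 CPM per kb.

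These counted levels went with how much of a member's coding sequence is found elsewhere in the transcriptome. For 77 members other than the close copies, each window of 50 coding bases was looked up in the annotated transcripts of all other genes (GENCODE M21), which include processed pseudogenes. 61 members had over 75% of their windows in another gene's transcripts, and their median level was 50.1 CPM per kb. The 12 members with over 25% to 75% shared had a median of 822 CPM per kb, and the 4 with at most 25%, Rps3, Rpl8 and Rpl4 among them, ran from 664 to 1502. Across these 77 genes, which all come from the same libraries, Spearman's rho between the shared part and the level was -0.61, given as a description. Rpl41, at 100% shared and the highest level, did not follow this. A low count here is thus a low counted level and may not be a low messenger level; how reads that match several genes were handled is not given in the sources used here. The differences between groups below compare a gene with itself.

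**Figure D2:**
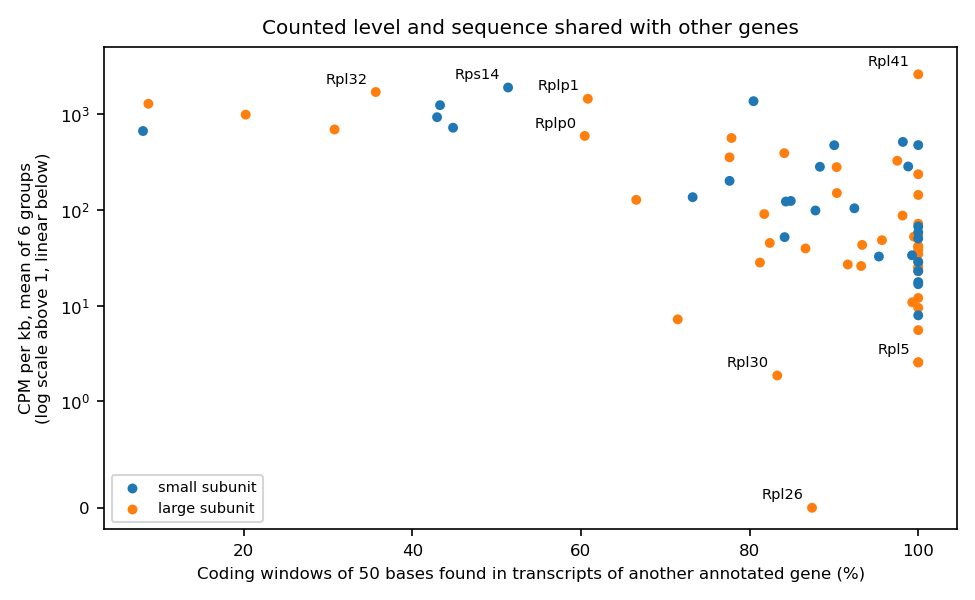
Counted level of 73 of these 77 ribosomal protein genes (vertical axis, CPM per kb, mean of 6 groups; log scale above 1) against the percent of coding windows of 50 bases found in another annotated gene (horizontal axis); each point is a gene, coloured by subunit. The plotted members with over 0% to 25% shared lie between 664 and 1278, and members over 75% run from 0 (Rpl26) to 2593 (Rpl41).

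In LSK cells, 15 of the 82 members tested were lower in Mut than in WT and 0 were higher (edgeR quasi-likelihood test, Benjamini-Hochberg adjusted p under 0.05 over 13170 genes). In that comparison 0.737% of all genes tested were called lower. The median log2 difference was -0.59 over the 82 members and 0.01 over all genes tested. A value below 0 was found in 66 members and in 49.3% of all genes tested. The 82 members were those that passed a filter on low counts; Rpl26, Rpl10l and Rpl39l did not pass it. In 51 members both Mut libraries were below both WT libraries, which held for 20.3% of all genes tested; both Mut libraries were above both WT libraries in 9 members and in 26.8% of all genes. Every statement of direction in this paragraph holds for scaling by genes: under spike-in scaling the members' median became 0.51 and that of all genes 1.10, the members lay 0.59 below the typical gene as before, and 7 members were called higher and 1 lower, where 22.8% of all genes were called in either direction.

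The spread in that test was estimated from the 6 LSK libraries. Estimated from the 4 libraries compared it gave 1 call, Rplp1, with 0.0399% of all genes called in either direction. Leaving out 1 library gave 1 to 34 members. There were 30 without the first LSK WT library and 34 without the second, but 17.3% and 18.7% of all genes were then called in either direction. There were 3 without either LSK KO library and 1 without either LSK Mut library, with 0.0360% to 0.0795% of all genes called. Genes listed for other cell types moved in the same libraries. The 5 granulocyte-monocyte genes summed to 2034 and 2408 CPM in LSK WT, 4990 and 4708 in LSK KO and 6003 and 5768 in LSK Mut, with 2 of the 5 called higher in Mut than in WT. The sums of 4 neutrophil genes were 84.2 and 161, 39.3 and 33.7, and 43.8 and 49.5 CPM. Ltf, on that list, had means of 0, 1.61 and 4.14 CPM, against the course of its sum. The sums of 5 erythroid genes were 281 and 281, 221 and 215, and 165 and 168, with both globin genes at 0. Those of 4 T-cell genes were 0.319 to 1.06, 7.04 to 8.17 and 5.65 to 6.05. Most of this was Cd4, with means of 0.634, 6.76 and 4.19 CPM, while Cd3e, Cd3d and Cd8a had LSK means at or below 0.891 CPM. The part of other cell types in the members' differences was not tested.

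The stalk of the large subunit recruits elongation factors and is built from Rplp0, its anchor, and the acidic proteins Rplp1 and Rplp2. Rplp1 (chr9:61913284-61914542, - strand) was the member with the largest fall: 1701 and 1787 CPM in LSK WT, 965 and 837 in LSK KO, and 342 and 400 in LSK Mut, with no overlap between the groups. Its log2 difference between LSK Mut and LSK WT was -2.25 ± 0.12 (SE; 4.76-fold lower, edgeR adjusted p = 0.000405), and it stayed at -1.13 with spike-in scaling. Rplp1 alone held 6.46% and 6.59% of the members' counts in LSK WT and 1.96% and 2.10% in LSK Mut. Rplp2 had 92.6 and 95.6 CPM in LSK WT, 64.7 and 52.8 in LSK KO, and 33.9 and 38.6 in LSK Mut; its log2 difference of -1.40 ± 0.26 between Mut and WT missed the threshold (edgeR adjusted p = 0.0558). Rplp0 stood apart from both, with 854 and 867 CPM in LSK WT and 750 and 827 in LSK Mut (log2 difference -0.15 ± 0.10, edgeR adjusted p = 0.462).

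8 of the 33 small-subunit members were called lower. Rps21 (chr2:180257377-180258445, + strand) had 620 and 623 CPM in LSK WT, 372 and 287 in LSK KO, and 164 and 197 in LSK Mut, a log2 difference of -1.80 ± 0.17 between Mut and WT (3.49-fold lower, edgeR adjusted p = 0.00907) that was -0.67 and not called with spike-in scaling. Its 3 genotypes did not overlap in LSK. Rps9 (chr7:3703993-3706897, + strand), an early-binding protein of small-subunit assembly, had 1469 and 1540 CPM in LSK WT, 1307 and 1195 in LSK KO, and 682 and 738 in LSK Mut; its log2 difference was -1.10 ± 0.09 (edgeR adjusted p = 0.0057) and 0.006 with spike-in scaling. Rps24 and Rps28, both among the Diamond-Blackfan genes, fell by 1.16 ± 0.11 and 1.23 ± 0.15 on the log2 scale; with spike-in scaling they were at -0.06 and -0.13 and were not called. 3 others had smaller differences: Rpsa, also known as the laminin receptor precursor, fell by 0.89, Rps20 by 0.81 and the X-linked Rps4x by 0.70, and with spike-in scaling these 3 had values of 0.21, 0.31 and 0.40.

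7 of the 49 large-subunit members tested were called lower, Rplp1 included. Rpl37a, a small zinc-finger protein, had 102 and 105 CPM in LSK WT, 62.2 and 52.6 in LSK KO, and 28.5 and 38.4 in LSK Mut (log2 difference -1.65 ± 0.28, edgeR adjusted p = 0.0462). Rpl27a had 127 and 131 CPM in LSK WT and 48.4 and 53.7 in LSK Mut, and Rpl14 had 897 and 962 against 419 and 514; their log2 differences were -1.36 ± 0.21 and -1.01 ± 0.13. Rpl22, an RNA-binding protein needed for lymphocyte development, fell by 0.89, Rpl7 by 0.74 and Rpl41 by 0.64 on the log2 scale; with spike-in scaling Rpl37a and Rpl27a were at -0.50 and -0.25 and not called, and Rpl14, Rpl22, Rpl7 and Rpl41 had positive values of 0.12, 0.19, 0.35 and 0.45. Rpl41 differed from Rplp1 in its course: LSK KO, at 1458 and 1340 CPM, lay with LSK WT, at 1362 and 1463, and only LSK Mut, at 933 and 911, lay below.

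**Figure D3:**
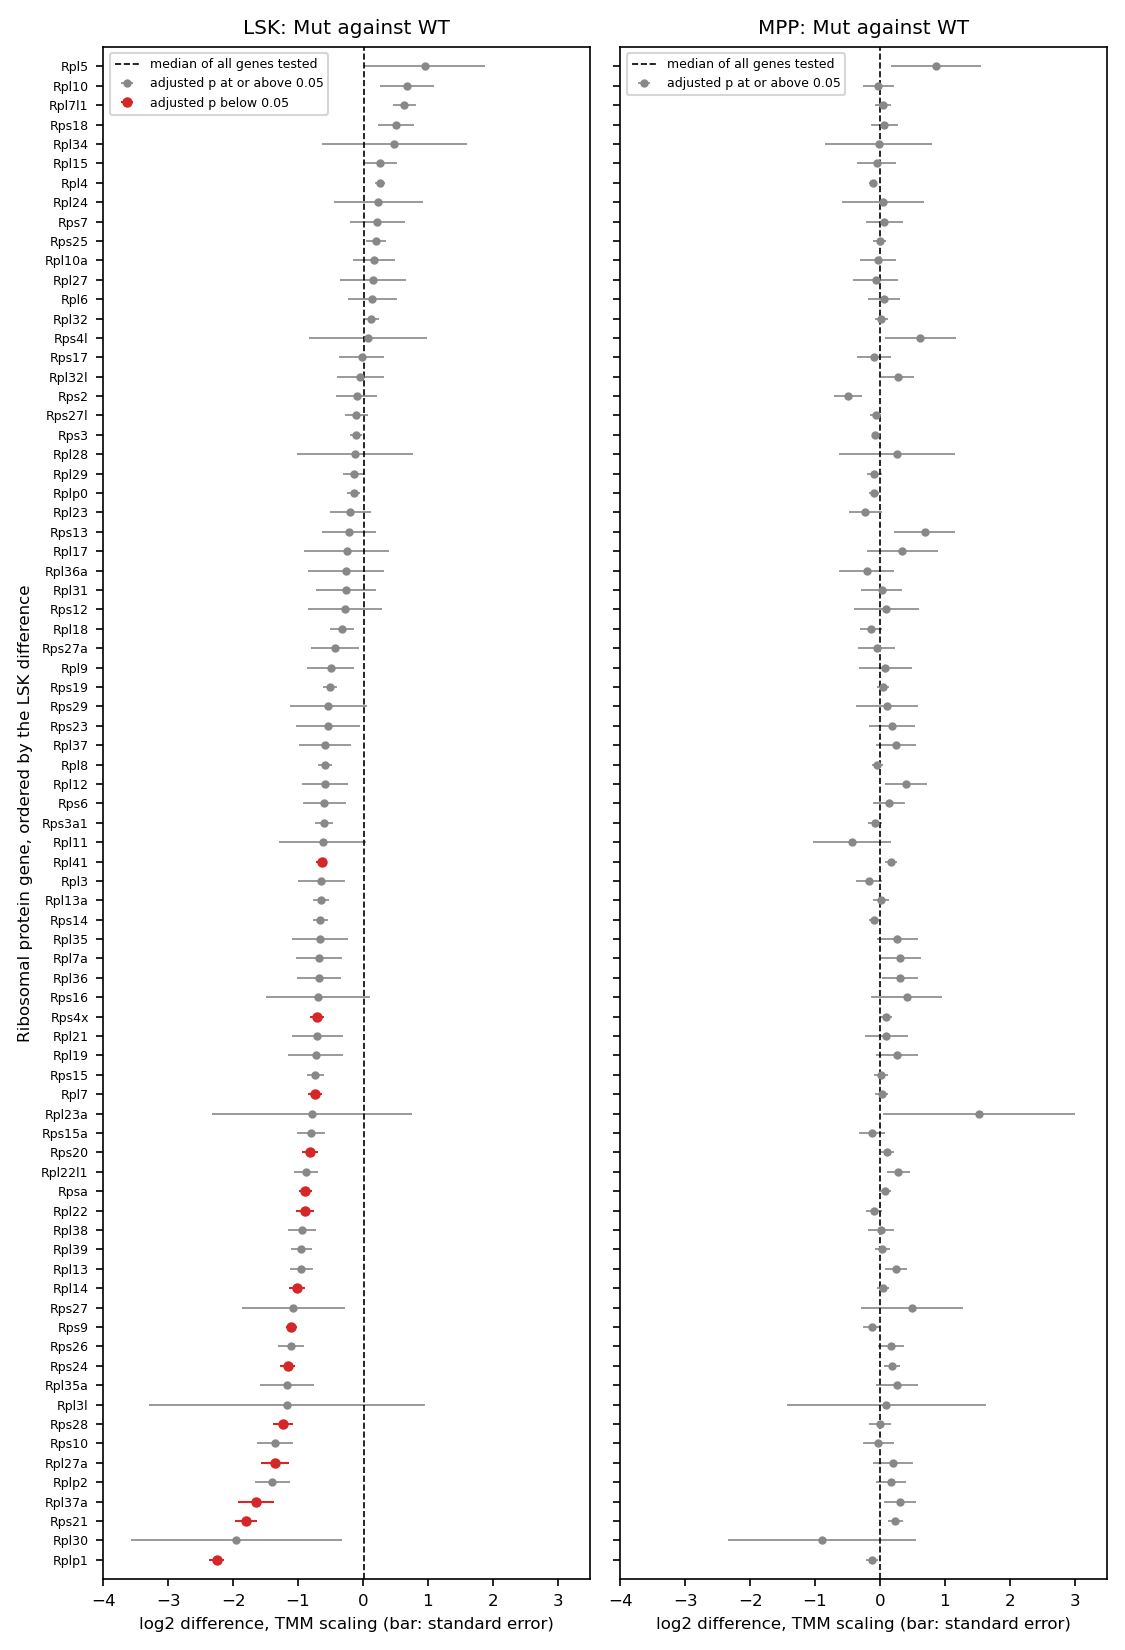
Log2 difference between Mut and WT (horizontal axis, scaled by genes; bars are 1 standard error) of 78 of the 82 ribosomal protein genes tested (vertical axis) in LSK and in MPP; red marks an adjusted p under 0.05 and the dashed line the median of all genes. In LSK 14 genes are red, all to the left, with Rplp1 at -2.25, and in MPP none is; with spike-in scaling the LSK median is 0.51, below the 1.10 of all genes.

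Other abundant members did not differ at the threshold, and some had values on the other side. Rpl4 had 1188 and 1294 CPM in LSK WT and 1530 and 1495 in LSK Mut, a log2 difference of 0.27 ± 0.08 (edgeR adjusted p = 0.154). Rpl32 was at 0.13 ± 0.12 and Rps3 at -0.11 ± 0.09. As a share of the members' counts, Rpl4 went from 4.51% and 4.77% in LSK WT to 8.74% and 7.84% in LSK Mut, the opposite course to that of Rplp1. Of the 33 members at 100 CPM or more on average, 28 had a negative difference and 13 of these were called. Over all genes tested, at any level, 49.3% had a negative difference and 0.737% were called lower. No share was taken over all genes at 100 CPM or more, so the 13 cannot be set against genes counted as highly. Rps14, at -0.66 ± 0.12, and Rpl39, at -0.95 ± 0.17, just missed the threshold (edgeR adjusted p = 0.0501 for both).

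The members' medians were close to each other in 3 of 4 classes of transcript length. The median log2 difference between LSK Mut and LSK WT was -0.68 for the 29 with transcripts under 600 bases, -0.56 for the 32 from 600 to 1000 and -0.64 for the 17 from 1000 to 2000 bases, and it was 0.07 for the 2 from 2000 to 4000 bases. The other genes of the same lengths had medians of -0.10, 0.12, 0.21 and 0.06.

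**Figure D4:**
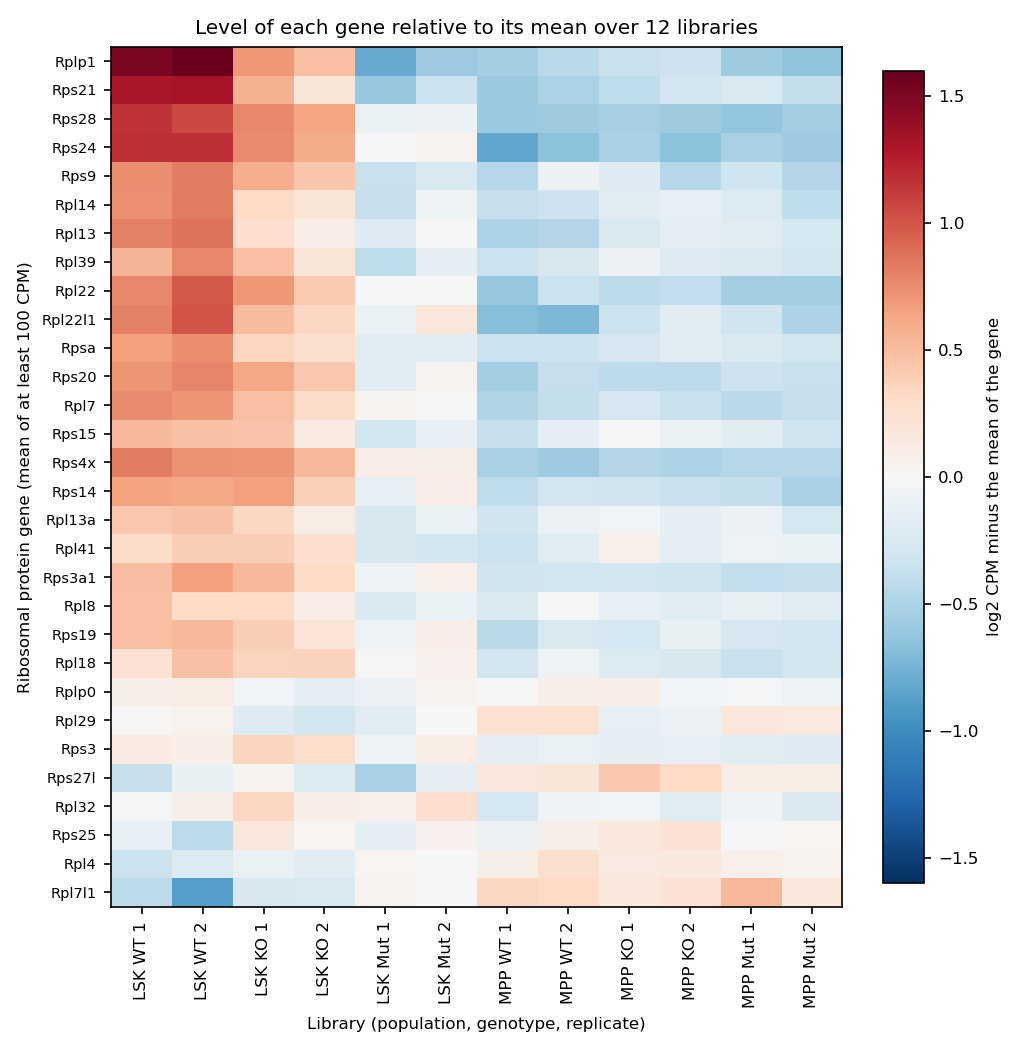
Log2 CPM of 30 of the 33 ribosomal protein genes with a mean of at least 100 CPM, relative to the mean of the gene over the 12 libraries (colour, scaled by genes); rows are genes ordered by the difference between LSK WT and LSK Mut, columns are libraries. In the upper rows the LSK WT columns are the darkest red and LSK KO is between WT and Mut, and Rpl4 and Rpl7l1 at the bottom run the other way; spike-in scaling adds the same amount to every gene of a library and keeps the order of genes within a column.

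KO and WT were compared in the same LSK fit, and share the WT libraries with the comparison above. 0 of 82 members were called, with 0.0456% of all genes called in either direction. At an unadjusted p under 0.05 there were 17 members lower and 1 higher, where 13.8% of all genes were under it, and DESeq2 called 9 members, all lower, and 4.77% of all genes. The median log2 difference was -0.24 over the members and 0.00 over all genes (0.26 and 0.51 with spike-in scaling). In 38 members both KO libraries were below both WT libraries, which held for 18% of all genes. Rplp1 was at -0.97 ± 0.11 (edgeR adjusted p = 0.0723) and Rps21 at -0.94 ± 0.16 (0.157). Leaving out the first LSK WT library gave 10 members lower and 1 higher, and leaving out the second gave 5 lower; 10.5% and 12% of all genes were called in those fits, so these counts were near or below the share of all genes.

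Set against each other, LSK KO was above LSK Mut in 2 members, Rplp1 (1.28 ± 0.11 on the log2 scale, edgeR adjusted p = 0.0186) and Rps9 (0.82 ± 0.09, edgeR adjusted p = 0.049), with 0.0532% of all genes called higher. The median over the members was 0.33, and in 50 of them both KO libraries were above both Mut libraries, as in 21.7% of all genes. With spike-in scaling the median was -0.30, above the -0.59 of all genes, and 0 were called. Leaving out a KO or a Mut library also gave 0 calls, leaving out a WT library gave 8 (0.462% and 0.448% of all genes), and DESeq2 called 18 (3.12% of the genes it gave an adjusted p).

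In MPP cells no member was called in any genotype comparison. The share of all genes called in either direction was 0.363% for KO against WT, 0.224% where Mut was set against WT and 0.239% between KO and Mut. The counts of members at an unadjusted p under 0.05 were 5, 2 and 7 of 82, where 8.47%, 9.75% and 9.48% of all genes were under it. DESeq2 called 1, 0 and 2 members and 2.15%, 2.51% and 2.11% of all genes. The members' counts were thus near or below the share of all genes. The members' median log2 differences were 0.19, 0.05 and 0.11, and those of all genes were -0.01, -0.003 and 0.00. Both MPP KO libraries were above both MPP WT libraries in 48 members and below them in 5, beside 19.9% and 20.1% of all genes, and for Mut against WT 25 members had both libraries above and 13 both below (19.8% and 19.4% of all genes). Rplp1 had 412 and 445 CPM in MPP WT, 470 and 478 in MPP KO, and 405 and 383 in MPP Mut, close to its LSK Mut level. Under spike-in scaling 26 members were called lower in Mut than in WT, where the members' median was -0.53 and that of all genes -0.59, and 17.7% of all genes were called in either direction. It also called 39 members higher in KO than in Mut, with medians of 0.75 and 0.65 and 25.1% of all genes called.

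Among members with a mean of over 100 counts in the higher group, the largest MPP differences were those of Rpl3 and Rps4l for KO, and of Rps2 and Rpl5 for Mut. Rpl3, a core protein of the peptidyl transferase centre, had 62.5 and 57.0 CPM in MPP WT, 114 and 120 in MPP KO, and 46.0 and 60.8 in MPP Mut. The KO libraries lay above the other 4, and the log2 difference of 0.96 ± 0.21 between KO and WT was not called (edgeR adjusted p = 0.169). In LSK, Rpl3 was likewise uneven: 69.4 and 36.5 CPM in WT, 74.3 and 71.1 in KO, and 34.1 and 34.5 in Mut, with 1 WT library near KO and the other near Mut. Rps4l, annotated as a pseudogene, had 8.06 and 9.20 CPM in MPP WT, 2.72 and 3.12 in KO, and 9.84 and 16.8 in Mut; the log2 difference of -2.19 ± 0.58 between KO and Mut was not called (edgeR adjusted p = 0.282). For Mut against WT, Rps2 was at -0.49 ± 0.21 and Rpl5 at 0.87 ± 0.69, neither of them called.

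The test of whether the genotype difference itself differed between LSK and MPP used all 12 libraries and 14033 genes, and shares its LSK libraries with the comparisons above. For Mut, 18 members had a more negative difference in LSK than in MPP and 0 a more positive one, where 1.01% of all genes were called lower. Among these were Rpl13, Rpl14, Rpl22l1, Rpl37a, Rpl39, Rpl41, Rpl7, Rplp1, Rplp2, Rps20, Rps21, Rps24, Rps26, Rps28, Rps4x, Rps9 and Rpsa. Rplp1 was at -2.11 ± 0.15 and Rps21 at -2.03 ± 0.21 on the log2 scale. For KO, 2 members were called, Rplp1 at -1.10 ± 0.15 (edgeR adjusted p = 0.0188) and Rps21 at -1.11 ± 0.21 (0.0434), and 0.157% of all genes were called lower. The members' medians were -0.64 (Mut) and -0.33 (KO), and all genes had 0.08 in both. With spike-in scaling these became 1.03 and 0.09 beside 1.74 and 0.51 for all genes, 25 members were called higher for Mut, where 38.7% of all genes were called in either direction, and 0 were called for KO. With 1 library left out the members' median ran from -0.68 to -0.54 for Mut and from -0.41 to -0.25 for KO. Calls among members and among all genes both rose without an LSK WT library, and both fell without any of the other 10.

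**Figure D5:**
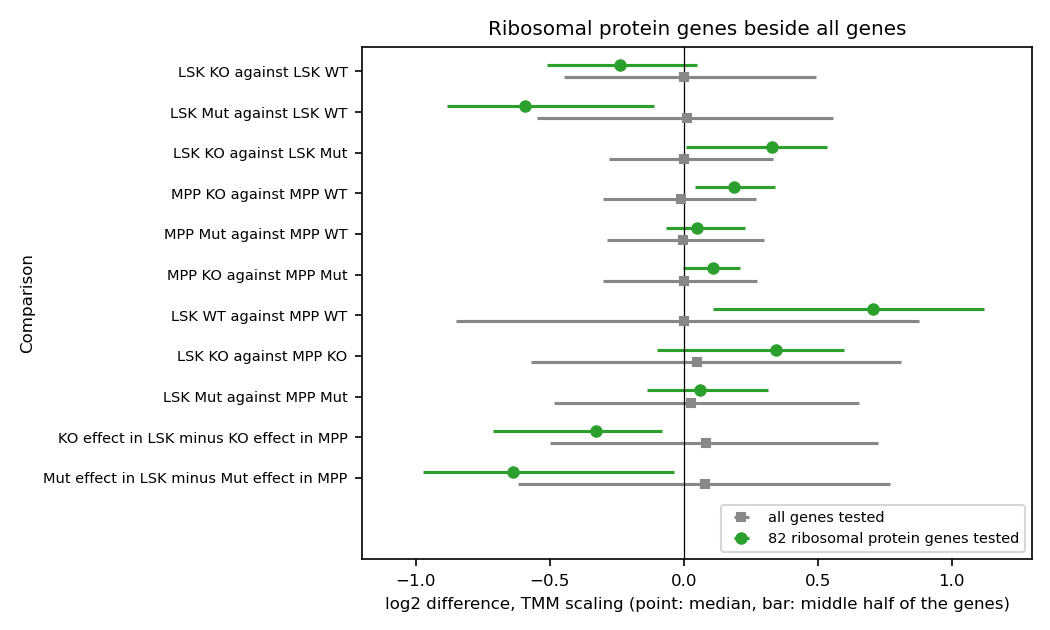
Median log2 difference (points; bars span the 25th to the 75th percentile) of the 82 ribosomal protein genes tested and of all genes tested, for the 11 comparisons, with scaling by genes. The members lie at -0.59 for LSK Mut against LSK WT and at 0.71 for LSK WT against MPP WT, while the medians of all genes lie between -0.01 and 0.08; with spike-in scaling the first of these is 0.51 beside 1.10 for all genes.

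Between the 2 populations, more members were higher in LSK than lower in each genotype. These comparisons come from the same fit and share their libraries with those of the genotypes. In WT, 37 members were higher in LSK than in MPP and 3 lower, where 10.2% of all genes were called higher and 13.7% lower. Among the 37 were Rpl12, Rpl13, Rpl13a, Rpl14, Rpl18, Rpl21, Rpl22, Rpl22l1, Rpl27a, Rpl36, Rpl37a, Rpl38, Rpl39, Rpl41, Rpl7, Rpl8, Rplp1, Rplp2, Rps10, Rps13, Rps14, Rps15, Rps15a, Rps19, Rps20, Rps21, Rps24, Rps26, Rps28, Rps3, Rps3a1, Rps4x, Rps9 and Rpsa. Rps13 had the largest log2 difference, 2.10 ± 0.43, from 39.1 and 27.8 CPM in LSK WT to 8.72 and 6.90 in MPP WT. Rplp1 followed at 2.03 ± 0.11 and Rps24 at 1.91 ± 0.12. Rpl4 (-0.46 ± 0.07) and Rpl7l1 (-0.95 ± 0.17) were among the 3 lower.

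In KO, 24 members were higher in LSK and 2 lower, with 7.03% and 8.14% of all genes called. Rps24, at 478 and 427 CPM in LSK KO and 199 and 181 in MPP KO, had a log2 difference of 1.25 ± 0.11, as Rps28 did with 1.25 ± 0.15; Rpl10 (-1.05 ± 0.31) and Rpl4 (-0.30 ± 0.07) were lower. In Mut, 5 members were higher and 0 lower, with 3.55% of all genes called higher. They were Rps24 (0.58 ± 0.11), Rpl22 (0.56 ± 0.13), Rps4x (0.55 ± 0.10), Rps14 (0.44 ± 0.11) and Rpl7 (0.41 ± 0.10), and Rplp1 was at -0.09 ± 0.10. In KO the members' median was 0.27 and 0.43 without an LSK KO library, and 0.36 and 0.34 without an MPP KO library. In Mut it was 0.16 and -0.05 without an LSK Mut library, and 0.14 and 0.01 without an MPP Mut library. Fewer members and fewer of all genes were called in these fits, where 1 library stood for a group. More of both were called in Mut without an LSK WT library. With no library left out, the members' medians were 0.71 in WT, 0.35 in KO and 0.06 in Mut, beside 0.00, 0.05 and 0.03 for all genes.

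Spike-in scaling raised these medians to 4.91, 4.96 and 5.93 and those of all genes to 4.17, 4.66 and 5.88, called 80 to 81 of the members higher and 82.3%, 85.6% and 89.6% of all genes in either direction, and turned the members that were lower. The granulocyte-monocyte genes above also differed between the populations. Whether this came from cells of another type or from the sorted cells themselves was not tested. Fewer cells of a type and less RNA per cell cannot be told apart in bulk RNA.

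Members known for a role of their own were counted by list, with scaling by genes. Of the 20 genes listed for Diamond-Blackfan anaemia, 19 were tested. Of these, 3 were lower in LSK Mut than in LSK WT, Rps20, Rps24 and Rps28, beside 15 of all 82 members and 0.737% of all genes. A negative difference was found in 15 of the 19, beside 66 of all 82 members and 49.3% of all genes. The list's median was -0.62, beside -0.59 for all members. Rps19, the gene most often affected in that disease, had 1168 and 1216 CPM in LSK WT, 1103 and 967 in LSK KO, and 793 and 907 in LSK Mut (log2 difference between Mut and WT -0.51 ± 0.11, edgeR adjusted p = 0.0687). Rpl5 and Rpl11, which can also bind Mdm2 and so stabilise p53, were counted at 2.93 to 8.62 and 5.13 to 11.8 CPM over the 12 libraries and were called in none of the 11 comparisons. Of 8 proteins around the exit of the nascent chain, 7 were tested. All 7 had a negative difference between LSK Mut and LSK WT, with a median of -0.73, and 1 of them, Rpl22, was called. The counts of both lists were near those of all 82 members.

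Close copies were set beside their relatives. Rpl22l1 and Rpl22, which are known to regulate each other, had the same sign in LSK: Rpl22l1 had 184 and 210 CPM in WT, 149 and 132 in KO, and 97.2 and 119 in Mut, a log2 difference of -0.88 ± 0.19 (edgeR adjusted p = 0.0695), and Rpl22 was at -0.89 ± 0.14 (0.19 with spike-in scaling). Rpl7l1 and Rpl7 had opposite signs, with Rpl7l1 at 166 and 121 CPM in LSK WT and 230 and 221 in LSK Mut (0.64 ± 0.18, edgeR adjusted p = 0.135) and Rpl7 at -0.74 ± 0.11 with scaling by genes and 0.35 with spike-in scaling. Rps27l, a p53 target, had 285 and 338 CPM in LSK WT and 258 and 330 in LSK Mut (-0.10 ± 0.18), where its relative Rps27, at 8.02 and 14.4 against 4.93 and 5.89 CPM, was at -1.07 with few counts. Rpl3l, the muscle form of Rpl3, and Rpl39l, a testis form of Rpl39, were at or below 2.47 CPM in all libraries, and Rpl10l, the testis form of Rpl10, had 0 counts, which allows up to 0.327 CPM in the shallowest library. Rpl10 itself was at 17.0 and 22.9 CPM in LSK WT and 30.4 and 34.1 in LSK Mut (0.67 ± 0.42), and Rpl39 at 335 and 390 against 174 and 208.

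Some ribosomal proteins have names outside the rule. Rack1, a scaffold on the small subunit, had 1725 and 1479 CPM in LSK WT, 1474 and 1405 in LSK KO, and 1138 and 1110 in LSK Mut. With scaling by genes it was lower in Mut than in WT (-0.53 ± 0.09, edgeR adjusted p = 0.0476). The shift of 1.10 that spike-in scaling gave the median of all genes is larger than this difference. Of 4 such genes tested, Rack1 alone was called, where 0.737% of all genes were called lower. Fau and Rpl36al were at 0.24 ± 0.48 and -0.16 ± 0.12 and were not called.

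Other genes of the translation machinery were counted from lists for the same LSK comparison of Mut and WT, in which 0.737% of all genes were called lower. Of 29 initiation factors tested, 1 was lower, Eif5b, the subunit-joining GTPase (-1.18 ± 0.18), and the median was 0.01. Of 7 elongation factors, 1 was lower, Eef1b2 (-0.78 ± 0.10), and the median was 0.18. Of 18 other TOP messengers, Npm1 (-0.59 ± 0.10), Nap1l1 (-0.85 ± 0.14) and Eef1b2 were lower and the median was -0.08. Of 15 genes of the TOR and S6 kinase axis 0 were called, with a median of 0.05, and of 78 mitochondrial ribosomal protein genes 0 were called, with a median of 0.14. These directions hold for scaling by genes; the shift of 1.10 that spike-in scaling gave the median of all genes is larger than each of these differences but that of Eif5b.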

How the data were processed

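Cells of 2 populations and 3 genotypes were measured by RNA-seq in 12 libraries, 2 for each group. The deposited table holds whole-number read counts per gene symbol, not normalized, for 24538 genes and 92 spike-in RNAs; the submitters' processing notes name Trim Galore 0.4.1, TopHat2 2.0.13, HTSeq 0.6.1, Cufflinks and the build mm10. How strand and reads matching several genes were counted is not given in the sources used here. Symbols were taken from the table, and transcript lengths and coordinates from GENCODE M21 (GRCm38).

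Genotypes were compared within each population and populations within each genotype, with edgeR 4.0.16 (R 4.3.3) quasi-likelihood tests on the deposited counts, TMM scaling over genes without spike-ins, and Benjamini-Hochberg adjustment over all genes tested; genes under an adjusted p of 0.05 were called. Genes passed filterByExpr by group (minimum count 10, minimum total 15): 13170 in the fit of the 6 LSK libraries, 12947 in that of the 6 MPP libraries and 14033 in that of all 12, which gave the LSK against MPP comparisons and the differences between effects. CPM values are from the fit of all 12. The test was checked on simulated counts. The ± values are standard errors from the edgeR fit and include the estimated spread between libraries, but not between mice. The floor given for 0 counts covers counting error only.

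The members and lists were chosen with earlier results of these data known. Named are members called in any comparison, the 5 highest and 3 lowest detected per kb, the stalk and 5S proteins, close copies with their relatives, the largest difference in each direction among members with a mean over 100 counts in the higher group, 4 ribosomal proteins outside the name rule, and Rn45s and Lars2. Rpl15, Rps18, Rps2, Rps3, Rpl4 and Rps19 were named for their windows or levels, some after their values were seen. A few genes that the rule names are not reported here by name; counts and medians include them. The alternatives were DESeq2 1.42.0, RLE size factors, no filter, a replicate block, the spread of the compared groups only, spike-in scaling, TMM without the members, Rn45s and Lars2, and leaving out each library.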

Additional observations from a re-analysis of the deposited data

Results flagged for a closer look

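Scaled by genes, the difference between genotypes was not the same in LSK and MPP for the members given here (edgeR interaction test, adjusted p under 0.05). Values are log2 differences in LSK minus those in MPP. With spike-in scaling, 14 of the Mut values given here changed sign, and none of the members given here was called for KO or for Mut. For KO against WT, Rplp1 was at -1.0988 and Rps21 at -1.10912. For Mut against WT, the stalk proteins Rplp1 and Rplp2 were at -2.11249 and -1.55424. In the small subunit, Rps21 was at -2.02537, Rps24 at -1.33465, Rps26 at -1.26956, Rps28 at -1.21355, Rps9 at -0.956373, Rpsa at -0.951163, Rps20 at -0.907286 and Rps4x at -0.775981. In the large subunit, Rpl37a was at -1.93591, Rpl13 at -1.17671, Rpl22l1 at -1.15187, Rpl14 at -1.04014, Rpl39 at -0.967209, Rpl41 at -0.787371 and Rpl7 at -0.752261. By the same test for Mut against WT, Rn45s was at -1.69 and Lars2 at -2.63, and their part in the members' differences was not tested.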

How the results depend on the processing

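Counts are of members called, percentages are the share of all genes called in either direction, and every cause was not tested unless said. RLE size factors called 18 between LSK Mut and LSK WT (1.24%), all 15 of the reported calls among them. TMM without the members, Rn45s and Lars2 called the same 15 (1.27%). Each of these scalings gave 1 in place of 2 between LSK KO and LSK Mut (0.0456%). DESeq2 called 9 for LSK KO against WT (0 as reported, 4.77%) and 34 for LSK Mut against WT (31 of them lower, 11.1%). For LSK KO against Mut it called 18 (3.12%), for MPP KO against WT 1 (2.15%) and for MPP KO against Mut 2 (2.11%). It called 10 for LSK Mut against MPP Mut (5 as reported, 16.2%). The KO and Mut differences between LSK and MPP had 10 and 31 calls (2 and 18 as reported, 4.61% and 8.27%). Without the filter there were 2 for LSK KO against WT (0.312%), 26 for LSK Mut against WT (2.97%), and 1 each for MPP KO against WT (1.19%) and against Mut (1.23%). With the spread from the compared groups alone there were 1 for LSK Mut against WT (0.0399%) and 24 for LSK WT against MPP WT (40 as reported, 7.75%). For the KO and Mut differences between LSK and MPP there were then 0 and 6 (0.0519% and 0.398%).

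Deviations of same-numbered libraries correlated at -0.0297 to 0.0186 across all genes, so over all genes the numbers did not pair the libraries. Across the members alone the correlations were -0.189 to 0.268. The replicate block gave 7 for LSK Mut against WT (0.266%), 1 for LSK KO against Mut (0.0380%) and 1 for the KO difference between LSK and MPP (0.242%). It otherwise stayed within 1.5 times the reported counts.

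Leaving out 1 library gave 0 to 11 for LSK KO against WT, 1 to 34 for LSK Mut against WT, 0 to 8 for LSK KO against Mut, 0 in all MPP genotype comparisons, 32 to 42, 13 to 33 and 1 to 9 for LSK against MPP in WT, KO and Mut, and 0 to 8 and 5 to 25 for the KO and Mut differences.

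Spike-in scaling gave 8 for LSK Mut against WT (7 of them higher), 0 for LSK KO against Mut, 26 for MPP Mut against WT, 39 for MPP KO against Mut, 80, 81 and 81 for LSK against MPP in WT, KO and Mut, and 0 and 25 for the KO and Mut differences, since it shifts all genes of a library. It turned the sign for LSK Mut against WT of Rpl14 (0.117), Rpl22 (0.193), Rpl41 (0.452), Rpl7 (0.347), Rps20 (0.312), Rps4x (0.398), Rps9 (0.00626) and Rpsa (0.209). In LSK against MPP it turned Rpl4 (3.74) and Rpl7l1 (3.22) in WT, and Rpl10 (3.57) and Rpl4 (4.32) in KO. For the Mut difference it turned Rpl13 (0.511), Rpl14 (0.657), Rpl22l1 (0.538), Rpl39 (0.723), Rpl41 (0.873), Rpl7 (0.909), Rplp2 (0.135), Rps20 (0.788), Rps24 (0.340), Rps26 (0.402), Rps28 (0.457), Rps4x (0.891), Rps9 (0.728) and Rpsa (0.711). Under the other settings run, no called member changed sign.

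The members' share of gene counts in LSK WT was 2.93% without Rn45s and Lars2 in the denominator, 2.59% without Rplp1 and 2.97% with the 4 ribosomal proteins outside the rule. With those 4 it was 2.69% in LSK KO, 2.12% in LSK Mut and for WT, KO and Mut in MPP 1.73%, 1.88% and 1.74%, and without Rplp1 1.69% in MPP KO. Members under 10 CPM were read too few times for small differences to be detectable.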
